A study of Mus musculus with 4 samples.

Results

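Venous stasis was compared with sham surgery over both genotypes of the study, to find the genes and functions whose difference after 48 h of ligation was shared by wild-type and Cd39-null mice. All 4 arrays of the series entered the comparison, 2 ligated against 2 sham, paired by genotype. They were C57BL/6J wild type after sham surgery, C57BL/6J wild type after ligation of the inferior vena cava, Cd39-null (Cd39-/-, CD39 knockout) after sham surgery, and Cd39-null after ligation. Mice were 8 to 10 weeks old, and both genotypes had been backcrossed to C57BL/6J for at least 8 generations. Each array carried vena cava RNA pooled from 4 mice, so the spread between mice is averaged out and no p-value measures it. A p-value here weighs the mean ligation difference against the disagreement of both pairs of arrays. The variance it uses is drawn in part from all genes. Sham surgery was opening of the abdomen and dissection of the vein without a ligature. The sources used here do not give the sex of the mice in each pool, whether their ligation was complete or partial, or whether clot was in the piece of vein.

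Tying off the vein stops flow, and a thrombus of fibrin, platelets, red cells and leukocytes fills the lumen. Over the next days neutrophils and then monocytes enter the clot and the vein wall, plasmin and metalloproteinases open up the fibrin, and fibroblasts and smooth muscle cells lay down collagen while the thrombus is resolved. The vein wall itself holds endothelium, a thin layer of smooth muscle, and an adventitia with fibroblasts, fat and autonomic nerve fibres.

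Values are log2 expression as made by the authors with RMA, so 1 unit is a 2-fold difference, and levels of different genes were not set against each other. For each gene the value of the sham array is given before that of the ligated array, first for the wild-type pair and then for the Cd39-null pair. One array went against its label. Entpd1, which encodes CD39, an enzyme that breaks down extracellular ATP and ADP, lay at 7.11 and 6.17 in the wild-type pair but at 4.16 and 6.14 in the Cd39-null pair. The ligated array of that pair thus had Entpd1 at the wild-type level, and it is referred to throughout as the array labelled Cd39-null, ligated. The sources used here do not give where the deleted part of the gene lies relative to the probes. Of the vein's own markers, Acta2 of smooth muscle lay between 8.34 and 9.68 and Cdh5 of endothelium between 7.28 and 8.37 on the 4 arrays. Background was read from 995 probe sets of olfactory receptors, which a vein should not express; their 95th percentile was 2.92 and 2.97 log2 on the wild-type and Cd39-null sham arrays but 2.67 and 2.68 on the ligated ones, so the background lay lower after ligation in both genotypes. Values at or under that range are approximate, and the part of this shift in the shared genes was not tested beyond the normalisations given below.

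Of 14115 genes kept above a floor of mean level, 512 were higher after ligation by at least 2-fold in both genotypes (3.63% of all genes) and 204 were lower by as much in both (1.45%). These are the shared genes described here. Of the higher genes, 22 were at or under background on both sham arrays and 42 had sham arrays at least 2-fold apart; of the lower genes, 29 were at background on both ligated arrays and 37 had sham arrays that far apart. Under quantile normalisation of the 4 arrays the same count was 361 higher and 286 lower, so the higher share of the calls was 71.5% as deposited, 55.8% with quantile normalisation and 60.3% with cyclic loess. The median difference of the higher genes was 1.43 log2 in the wild-type pair and 1.62 in the Cd39-null pair, and 301 of the 512 had pair differences within 0.5 log2 of each other. Among the lower genes the medians were -1.39 and -1.61, and 130 of 204 were within 0.5 log2. A stricter count that does not use the pairing asked for both ligated arrays to lie at least 2-fold beyond both sham arrays. It held for 367 genes above (2.6%) and 120 genes below (0.85%). By any margin, both ligated arrays lay above both sham arrays in 3957 of the 14115 genes and below both in 3663. Each count rests on every array: with either Cd39-null array left out, which leaves the wild-type pair, 932 genes were higher and 512 lower by at least 2-fold, and with either wild-type array left out 1537 and 818 were. The stricter count came to 626 to 964 above and 176 to 421 below with 1 array left out.

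With 1 array per group no gene passed the test. For each gene, limma's variance had 1 residual degree of freedom and 3.67 more from a prior over all genes. In limma's additive model of genotype and ligation, with 1 residual degree of freedom, 0 genes had a Benjamini-Hochberg adjusted p under 0.05, and the smallest adjusted p was 0.0952, shared by 251 genes. At an unadjusted p under 0.05 there were 1860 genes with a higher mean difference (13.2%) and 1100 with a lower one (7.79%), and all 512 and 204 shared genes were among them. The shared genes were picked by the same differences on the same arrays, so this overlap was likely from the outset. Without the wild-type ligated array, and with surgery as the only term, 79 genes passed (70 higher and 9 lower, smallest adjusted p 0.0455), and 38 of these were shared genes; 0 passed without any of the other 3 arrays. "Higher" and "lower" below therefore describe array values and not passed tests. The median mean difference of all genes was 0.01 log2, and 4447 genes (31.5%) had differences of opposite sign in the 2 genotypes.

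**Figure D1:**
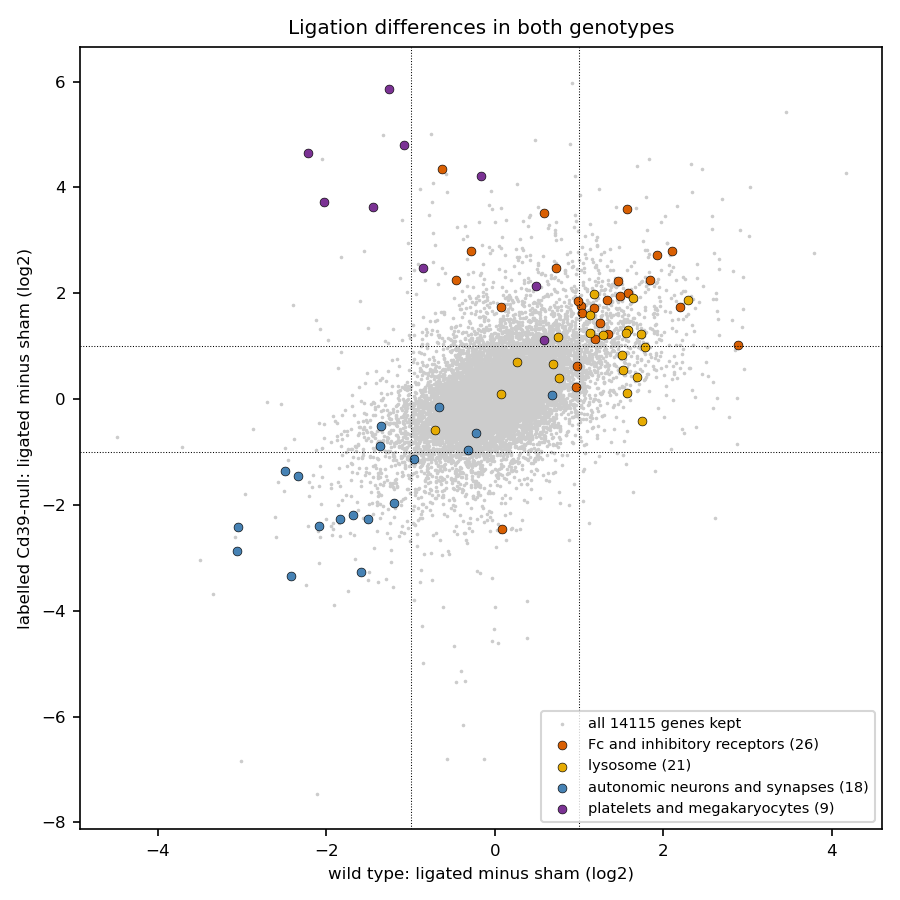
Ligated minus sham difference (log2) in the wild-type pair on the x axis and in the Cd39-null pair on the y axis; each grey point is 1 of 14115 genes, and dotted lines mark 2-fold. Fc and inhibitory receptors and lysosomal genes lie mostly at the upper right, neuronal genes at the lower left, and 7 of the 9 platelet genes at the upper left.

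The genes that separated the ligated from the sham arrays by the widest margin were led by Timp1, a tissue inhibitor of metalloproteinases. Timp1 lay at 5.28 and 9.45 in the wild-type pair and at 5.27 and 9.54 in the Cd39-null pair. Its mean difference was 4.22 log2 with a standard error of 0.22 (limma, adjusted p = 0.0952), and the lower ligated array stood 17.9-fold above the higher sham array. Both sham arrays nearly coincided, and so did both ligated arrays. Ccl3, Tlr13, Msr1, Myo1f, Nhp2, Cxcl5, C5ar1, Ccl2 and Arg1 followed in that order, and the 20 leading genes had margins from 4.28-fold to 17.9-fold. Of those 20, Ccl3, Cxcl5 and Otulinl were at or under the olfactory background on both sham arrays, so their size is approximate. Apart from Timp1, Nhp2 (a protein of small nucleolar ribonucleoproteins) and Tnc (tenascin-C), most of the leading genes are known from myeloid cells. Myo1f, a myosin of leukocytes, lay at 3.83 and 6.43 in the wild-type pair and at 3.87 and 6.63 in the Cd39-null pair. Laptm5, a lysosomal membrane protein of blood cells, lay at 5.64 and 8.46 and at 6.26 and 8.69. Tagln2, an actin-binding relative of transgelin, lay at 6.30 and 8.70 and at 6.44 and 8.73.

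**Figure D2:**
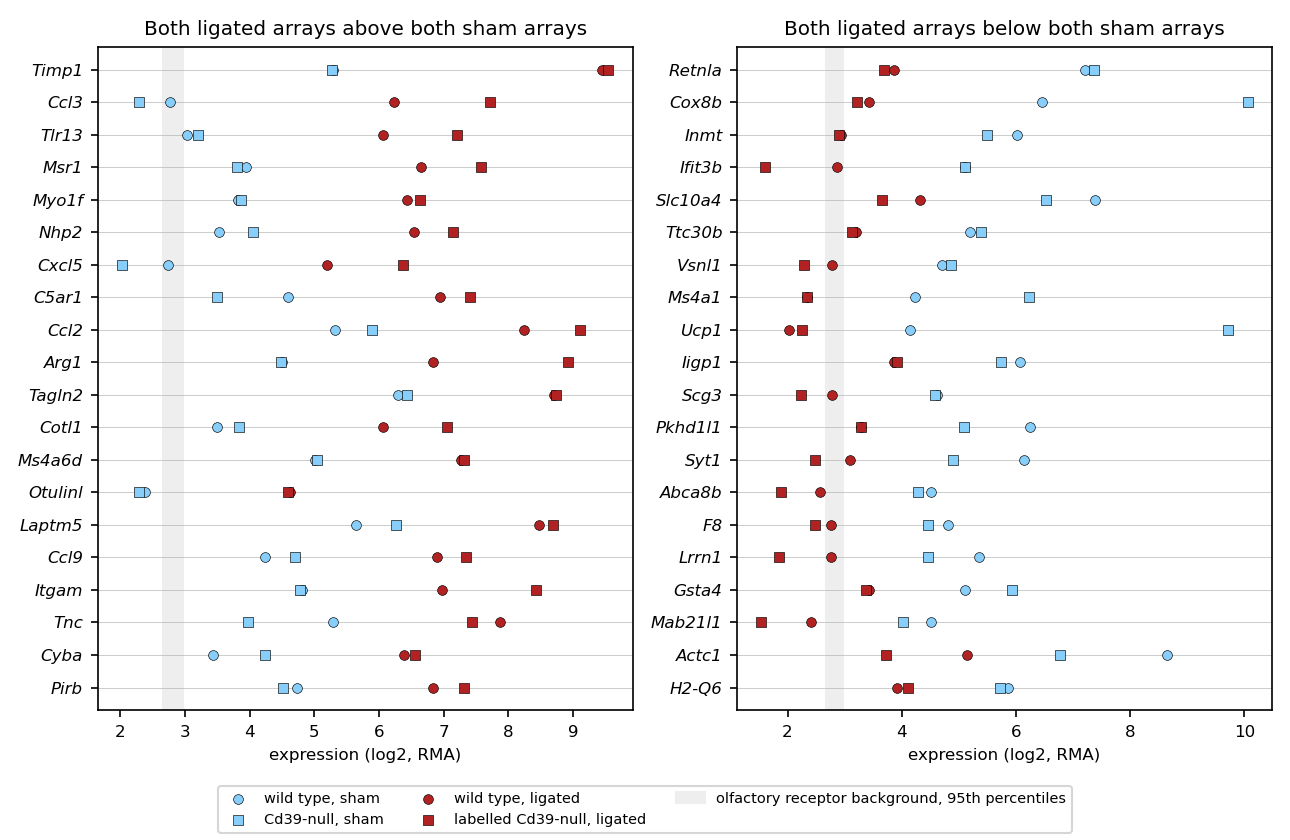
Expression (log2) of the 20 genes with the widest margin between ligated and sham arrays in each direction, 1 symbol per array; circles are wild type and squares the Cd39-null pair, blue is sham and red ligated, and the grey band spans the 95th percentiles of olfactory receptor probe sets. Timp1 is the widest margin above and Retnla the widest below; in Cox8b and Ucp1 the 2 sham arrays stand far apart.

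Monocyte and macrophage markers were the cell type list with the largest share of higher genes. Of 19 markers kept, 11 were higher by at least 2-fold in both genotypes, 0 were lower, and the list's median mean difference was 1.84 log2 against 0.01 for all genes. In the wild-type pair alone, which leaves out the array that went against its label, 16 of 19 were at least 2-fold higher, where 6.6% of all genes were higher and 3.63% lower in that pair. The mean level of the list was 5.21 and 6.81 in the wild-type pair and 5.20 and 6.88 in the Cd39-null pair. In bulk RNA, more cells of a type and more RNA per cell cannot be told apart. Arg1, the arginase of alternatively activated macrophages, lay at 4.50 and 6.83 in the wild-type pair and at 4.48 and 8.93 in the Cd39-null pair. Cd68, a macrophage lysosomal glycoprotein, lay at 6.12 and 8.50 and at 6.34 and 8.07. Ccr2, the receptor by which monocytes follow CCL2, lay at 5.00 and 7.82 and at 6.07 and 7.57. Lyz2, the lysozyme of phagocytes, lay at 7.51 and 9.74 and at 7.93 and 9.74, so that both ligated arrays reached the same value. In each of these genes both ligated arrays lay above both sham arrays. Chil3 had opposite signs, with differences of -0.59 and 4.26, and so did Gpnmb, with 1.75 and -0.41. Outside the list, Retnla, also known from alternatively activated macrophages, was lower in both genotypes, at 7.21 and 3.86 and at 7.37 and 3.69.

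Chemokines came next by role. Of 14 CC chemokines kept, 5 were higher in both genotypes and 0 lower, and the 5 were Ccl2, Ccl3, Ccl6, Ccl7 and Ccl9. Ccl2, the main monocyte attractant, lay at 5.32 and 8.23 in the wild-type pair and at 5.90 and 9.10 in the Cd39-null pair. Ccl7, which acts through the same receptor, lay at 3.87 and 7.66 and at 5.57 and 8.32. Ccl9 lay at 4.24 and 6.90 and at 4.70 and 7.35, with nearly the same difference of 2.66 and 2.65 log2. Ccl8 was the reverse case: it lay at 4.63 and 7.25 in the wild-type pair and at 6.26 and 4.01 in the Cd39-null pair, and of all genes kept it had the largest opposite differences, ranked by the smaller of both. Of 11 CXC chemokines only Cxcl5, a neutrophil attractant, was higher in both, at 2.74 and 5.20 and at 2.03 and 6.37, with both sham values at background. Of the 11, 3 lay lower on both ligated arrays than on both sham arrays, a share near that of all genes (3663 of 14115).

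Some of the receptors that read these signals were higher in both genotypes. Of 15 chemoattractant receptors, 5 were higher in both genotypes, 1, Ackr3, was lower, and 4 had opposite signs. C5ar1, the receptor for the complement fragment C5a, lay at 4.59 and 6.94 and at 3.49 and 7.41. C3ar1 lay at 5.58 and 7.64 and at 5.05 and 7.41, Ptafr (the receptor for platelet-activating factor) at 3.11 and 4.92 and at 2.64 and 5.84, and Cxcr2 of neutrophils at 4.42 and 6.09 and at 6.11 and 8.50. The 2 sham arrays differed in Cxcr2 by as much as the wild-type pair did, and the groups overlapped. Ackr3, a scavenging chemokine receptor of vessels, lay at 6.59 and 5.21 and at 6.82 and 5.42, with differences of -1.38 and -1.40. Among 23 cytokine receptors, 6 were higher, and 4 of the 6 belong to the colony-stimulating factor family: Csf1r, Csf2ra, Csf2rb2 and Csf3r. Under quantile normalisation 3 of the 23 receptors were higher in both genotypes, and under cyclic loess 4. Csf1r, which macrophages need to survive, lay at 4.65 and 7.01 and at 4.85 and 6.13. Csf3r, the receptor for granulocyte colony-stimulating factor, lay at 3.69 and 5.52 and at 4.07 and 8.61. Of 23 cytokines and growth factors only Il6 and Il1b reached 2-fold in both genotypes, and both were larger in the Cd39-null pair: Il1b differed by 1.42 and 3.34 log2, and Il6 by 1.69 and 4.40.

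Fc receptors and the paired activating and inhibitory receptors of myeloid cells held the largest share of higher genes of any list. These receptors sense antibody, lipids and cell surface ligands and signal through the adaptors Fcer1g and Tyrobp or through inhibitory motifs. Of 26 members kept, 16 were higher in both genotypes and 0 lower, 21 had both ligated arrays above both sham arrays, and the median was 1.53 log2. The wild-type pair alone also gave 16 of 26, and 13 of 26 stayed past 2-fold in both genotypes under quantile normalisation. Fcgr3, an activating receptor for immunoglobulin G, lay at 5.07 and 6.91 and at 5.30 and 7.56. Its adaptor Fcer1g lay at 6.96 and 9.16 and at 7.54 and 9.29, and Tyrobp at 6.72 and 7.89 and at 6.78 and 8.50. Pirb, an inhibitory receptor that binds class I molecules, lay at 4.74 and 6.84 and at 4.52 and 7.32. Lilr4b lay at 4.84 and 6.77 and at 5.25 and 7.98, and its neighbour Lilrb4a at 5.94 and 7.28 and at 6.00 and 7.88. Near-identical copies exist in the Pirb and Lilrb4 families, and how probes divide between copies is not known here. Siglec1, the sialoadhesin of tissue macrophages, was higher mostly in the wild-type pair, with differences of 2.89 and 1.02. Trem1, Trem3 and Treml2 were of opposite sign: Trem1 lay at 2.59 and 1.96, at background, in the wild-type pair and at 2.26 and 6.61 in the Cd39-null pair.

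**Figure D3:**
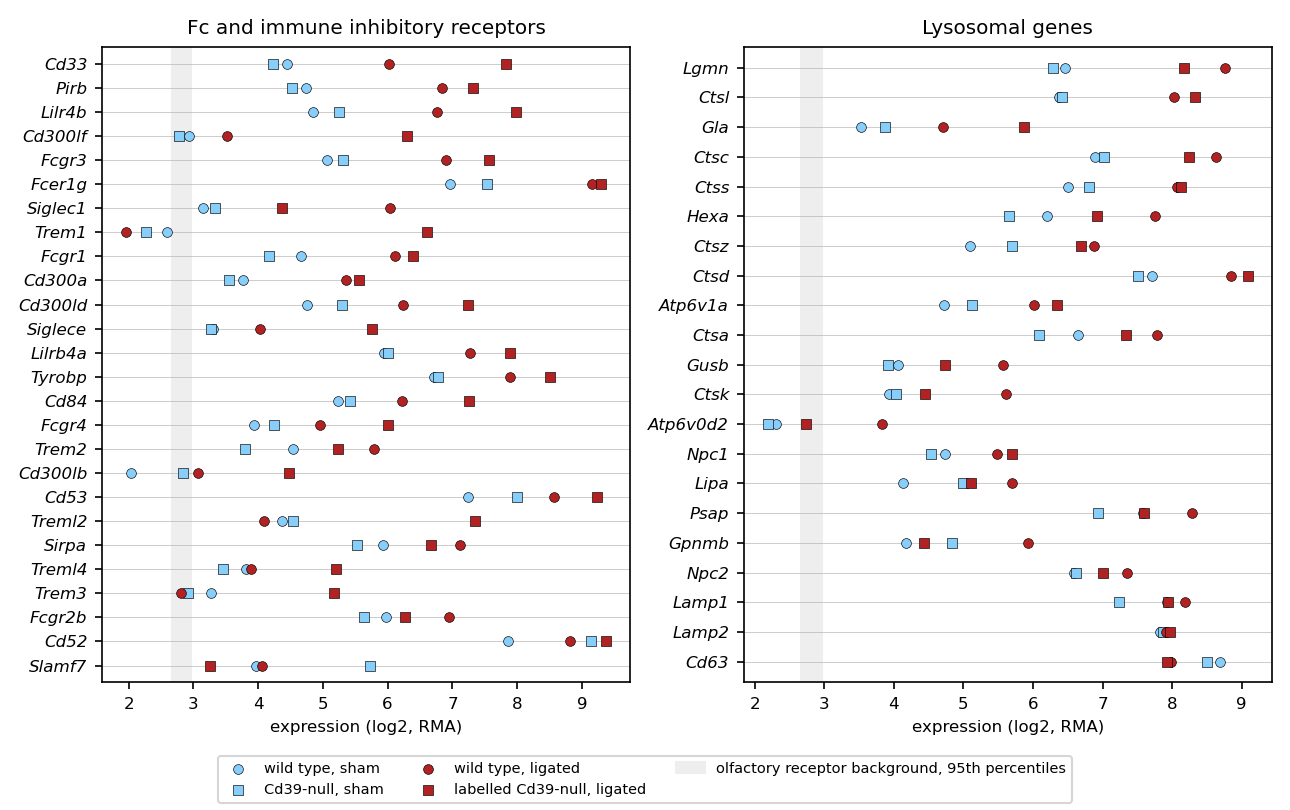
Expression (log2) on each of the 4 arrays of the 26 Fc and immune inhibitory receptors and the 21 lysosomal genes kept, ordered by mean difference; circles are wild type, squares the Cd39-null pair, blue sham and red ligated. Both red symbols lie to the right of both blue symbols in 21 of the 26 receptors and in 19 of the 21 lysosomal genes.

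Spi1 encodes PU.1, the transcription factor that myeloid cells depend on, and it was the inflammatory transcription factor with the largest mean difference. It lay at 3.40 and 5.88 in the wild-type pair and at 4.22 and 6.36 in the Cd39-null pair. Of 28 inflammatory transcription factors and brakes, 6 were higher in both genotypes (Spi1, Runx1, Fosl2, Bcl3, Egr2 and Irf5), 0 were lower, and 8 had opposite signs. Runx1, which acts beside PU.1 in myeloid cells, lay at 5.25 and 6.77 and at 4.70 and 6.79. The promoters of shared genes were searched on both strands, over the 250 bases before each start in RefSeq's table of assembly GRCm38.p6, for the PU.1 core GAGGAAGT. It stood in 5.01% of the 519 windows of 406 higher genes, in 2% of the 200 windows of 156 lower genes, and in 2.32% of the 14108 windows of the 11182 genes searched. The myeloid lists were not alike. The core stood in 3 of 20 windows of the Fc and inhibitory receptors and 3 of 10 of the phagocyte oxidase and granule genes. It stood in 0 of 17 windows of the macrophage markers, 0 of 13 of the myeloid C-type lectins and 0 of 8 of the CC chemokines. Those windows covered 14 of the 19 macrophage markers kept, 11 of the 13 lectins and 8 of the 14 CC chemokines. The other members had no window in the search, which did not cover every chromosome. The Pirb promoter is shown as an example of a match to the core in a leading gene. It spans chr7:3720383-3720632 on the minus strand, with the match in capitals 120 bases before the start.
Pirb: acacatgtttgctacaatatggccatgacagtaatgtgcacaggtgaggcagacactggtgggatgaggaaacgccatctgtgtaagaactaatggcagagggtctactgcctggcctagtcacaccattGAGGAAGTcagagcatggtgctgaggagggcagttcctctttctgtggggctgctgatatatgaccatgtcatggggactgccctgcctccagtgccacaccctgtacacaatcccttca
A match is a description of letters and not of binding. Matches to AP-1 (TGANTCA) stood in 5.97% of the windows of higher genes and 4.85% of all windows, those to NF-kB (GGANTTTCC) in 1.54% and 1.22%, and those to the CRE (TGACGTCA) in 1.73% and 2.39%. Matches to different motifs could overlap and each was counted.

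Lysosomal genes were in part higher in both genotypes, with list medians of 1.51 log2 in the wild-type pair and 0.98 in the Cd39-null pair. Of 21 kept, 9 were higher in both genotypes, 0 were lower, 19 had both ligated arrays above both sham arrays, and the median was 1.17 log2. Lgmn, the protease legumain, lay at 6.46 and 8.76 in the wild-type pair and at 6.29 and 8.16 in the Cd39-null pair. The cathepsins Ctsl, Ctsc, Ctss, Ctsd and Ctsa were all among the 9. Ctsl lay at 6.38 and 8.02 and at 6.42 and 8.33, and Ctsd at 7.72 and 8.84 and at 7.51 and 9.09. Hexa, a subunit of hexosaminidase, lay at 6.20 and 7.75 and at 5.66 and 6.92, and Atp6v1a, a subunit of the proton pump that acidifies lysosomes, at 4.73 and 6.01 and at 5.13 and 6.34. Cd63 ran the other way, with both ligated arrays below both sham arrays, and Gpnmb had opposite signs in the pairs.

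Some genes by which phagocytes kill and engulf were higher in both genotypes. Of 13 phagocyte oxidase and granule genes, 6 were higher and 0 lower in both genotypes, and 4 of these 6 encode parts of the NADPH oxidase, the enzyme that makes superoxide: Cyba, Ncf1, Ncf4 and Rac2. Cyba, the p22phox subunit in the membrane, lay at 3.43 and 6.38 in the wild-type pair and at 4.24 and 6.55 in the Cd39-null pair. Ncf1, a cytosolic subunit, lay at 3.79 and 5.83 and at 4.16 and 7.12. Nos2, the inducible nitric oxide synthase, was higher on 1 array only: it lay at 2.68 and 2.50 in the wild-type pair and at 2.64 and 5.99 in the Cd39-null pair. Among 15 scavenger and efferocytosis receptors, 4 were higher in both: Msr1, Lrp1, Stab1 and Itgav; 2 of 15 passed under quantile normalisation and 3 under cyclic loess. Msr1, scavenger receptor A, lay at 3.94 and 6.64 and at 3.80 and 7.58. Among 22 innate sensors, 4 were higher in both: Tlr13, Cd14, Myd88 and Aim2. With either normalisation 2 of the 22 sensors passed. Tlr13, which recognises bacterial ribosomal RNA, lay at 3.04 and 6.06 and at 3.20 and 7.21. Of 13 myeloid C-type lectins, 3 (Clec4d, Clec4n and Clec5a) were higher in both, each more so in the Cd39-null pair, and Clec4n lay at 3.46 and 5.43 and at 3.15 and 6.50. Leukocyte integrins followed, with 4 of 17 adhesion genes higher and Jam2 lower. Itgam, the alpha chain of Mac-1 that binds fibrinogen, lay at 4.81 and 6.97 and at 4.78 and 8.43, and Jam2, an endothelial junction molecule, at 8.10 and 6.16 and at 7.38 and 5.71.

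Neutrophil markers did not share this pattern. Of 14 kept, 3 (Csf3r, Clec4d and Cxcr2) were higher in both genotypes, and the list's median difference was 0.01 log2 in the wild-type pair and 2.10 in the Cd39-null pair. Without the array labelled Cd39-null, ligated, the median mean difference turned from 1.01 to -0.38. Mmp8, the neutrophil collagenase, lay at 3.28 and 3.17 in the wild-type pair and at 4.91 and 6.99 in the Cd39-null pair. The median differences of the lists on other blood cells also parted by pair. Platelet genes had -1.08 and 3.73, B and plasma cell genes -0.33 and -2.34, and the 4 red cell genes kept -0.49 and 0.84. None of the 9 platelet genes was called in both genotypes and 7 had opposite signs; Clec1b lay at 6.11 and 3.90 and at 3.91 and 8.56. The part of cell makeup in the shared genes was not tested beyond these lists.

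Genes of the actin cytoskeleton, which moving cells need, were in part higher in both genotypes. Of 22 genes of actin and membrane remodelling, 7 were higher in both genotypes, 0 were lower, and 3 had opposite signs. In 18 both ligated arrays lay above both sham arrays, and all 22 had a mean difference above 0. The 7 were Fmnl1, Pfn1, Arpc1b, Capg, Lcp1, Wipf1 and Cfl1, and all but Fmnl1 had pair differences within 0.5 log2 of each other. Pfn1, profilin, lay at 7.50 and 9.39 in the wild-type pair and at 7.76 and 9.52 in the Cd39-null pair. Arpc1b, of the Arp2/3 complex that branches actin filaments, lay at 6.46 and 8.03 and at 6.29 and 7.81, and Cfl1, cofilin, at 7.14 and 8.45 and at 7.10 and 8.35. Fmnl1, a formin of leukocytes, differed by 1.19 and 2.49. Cotl1, a cofilin-like protein among the 20 leading genes, lay at 3.49 and 6.06 and at 3.84 and 7.05. Actb, in contrast, differed by 0.05 and 0.35 log2.

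Matrix genes formed a further group. Of 21 collagen chains, 7 were higher in both genotypes and 0 lower, and of 13 genes that process or crosslink collagen, 5 were higher and 0 lower. Col1a1 lay at 5.34 and 7.61 in the wild-type pair and at 4.76 and 5.99 in the Cd39-null pair. Col3a1 lay at 6.47 and 7.98 and at 5.02 and 7.19, and Col4a1, of basement membranes, at 3.86 and 5.38 and at 3.51 and 4.96. The collagens lay lower on the Cd39-null sham array than on the wild-type one, so that Col3a1 on the array labelled Cd39-null, ligated exceeded wild-type sham by less than 1 log2. Lox, the enzyme that crosslinks collagen and elastin, lay at 7.03 and 8.42 and at 5.72 and 7.87, its relative Loxl2 at 4.63 and 6.24 and at 3.53 and 5.61, and Bmp1, which trims procollagen, at 4.37 and 6.07 and at 3.79 and 5.42. The wild-type pair alone gave 11 of 21 collagens and 7 of 13 processing genes.

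Matricellular and provisional matrix genes were higher in 7 of 19 cases and lower in 0. Tnc lay at 5.28 and 7.86 in the wild-type pair and at 3.98 and 7.44 in the Cd39-null pair. Vcan, the proteoglycan versican, lay at 5.99 and 7.76 and at 5.68 and 8.66, and Fn1, fibronectin, at 8.09 and 9.12 and at 7.13 and 8.99. Ccn2, connective tissue growth factor, differed by 1.95 and 1.15, and Ccn4 by 1.30 and 1.98. Elastin (Eln) had opposite signs, with 1.01 and -0.37. Of 21 metalloproteinases and inhibitors, 5 were higher: Timp1, Adam8, Mmp19, Adam12 and Mmp14. Mmp14, a membrane-bound collagenase, lay at 5.77 and 7.69 and at 4.64 and 6.86, and Mmp19 at 4.34 and 6.16 and at 4.49 and 7.17.

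Genes of coagulation and fibrinolysis with a shared difference included both plasminogen activators and an inhibitor of urokinase. Of 21 kept, 6 were higher in both genotypes and 0 lower: Plau, Plat, Serpinb2, F13a1, Serpina3n and S100a10. Plau, the urokinase plasminogen activator, lay at 4.00 and 6.09 in the wild-type pair and at 3.67 and 6.09 in the Cd39-null pair. Plat, the tissue plasminogen activator, lay at 4.06 and 5.51 and at 4.26 and 5.42, and S100a10, part of a cell surface receptor for plasminogen, at 7.31 and 8.36 and at 7.48 and 8.78. Serpinb2, an inhibitor of urokinase in macrophages, was higher as well, at 3.29 and 5.12 and at 3.31 and 6.06. F13a1, the transglutaminase that crosslinks fibrin and is also made by macrophages, lay at 5.80 and 7.73 and at 5.61 and 7.88. Initiators and brakes of clotting were not shared: tissue factor (F3) differed by 0.10 and -1.26, thrombomodulin (Thbd) by -0.83 and 0.48, and F5 by -0.76 and 5.01.

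Genes that handle heme and iron were higher in both genotypes in 6 of 20 cases, and 1, Cp, was lower. Hmox1, heme oxygenase 1, lay at 6.37 and 8.40 in the wild-type pair and at 5.57 and 9.02 in the Cd39-null pair. Both biliverdin reductases, the next step after heme oxygenase, were higher: Blvra lay at 3.96 and 5.48 and at 4.06 and 5.50, and Blvrb at 4.53 and 5.86 and at 4.15 and 5.72. Hp, haptoglobin, which binds free hemoglobin, differed by 2.63 and 1.67 log2. Cp, ceruloplasmin, a copper ferroxidase that lets iron leave cells, lay at 7.65 and 6.20 and at 7.67 and 6.19, among the most even pairs of differences (-1.45 and -1.48). Of the genes against oxidative stress, 3 of 20 were higher (Pgd, Gsr and Mt2) and Gsta4, a glutathione transferase, was lower, at 5.11 and 3.43 and at 5.94 and 3.37. Of 25 genes of glycolysis and the hypoxia response, 3 were higher in both, namely Ldha, Aldoa and Tpi1, and 1 of 25 was past 2-fold in both under quantile normalisation or cyclic loess. Ldha lay at 6.00 and 7.63 and at 6.85 and 8.30, with 3 of 25 past 2-fold in the wild-type pair alone against 16 of 25 in the Cd39-null pair. Of all 14115 genes, 932 were that much higher in the wild-type pair and 1537 in the Cd39-null pair. The difference between the list's counts was not tested. Among eicosanoid enzymes, 4 of 16 were higher. Alox5 and Alox5ap, which start leukotriene synthesis, lay at 3.55 and 4.86 and at 3.85 and 5.94 for Alox5, and at 6.16 and 7.94 and at 6.22 and 9.03 for Alox5ap. Hpgd, which inactivates prostaglandins, was lower, at 6.18 and 5.16 and at 5.31 and 3.82.

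Cell division genes were higher on both ligated arrays with few exceptions. Of 23 mitosis genes, 8 passed 2-fold in both genotypes, 0 were lower, and 22 had both ligated arrays above both sham arrays. Of 21 DNA replication genes, 5 passed, and all 21 had both ligated arrays above both sham arrays. The differences were larger in wild type, where 22 of 23 mitosis genes were past 2-fold against 8 of 23 in the Cd39-null pair. Of all 14115 genes, 932 were that much higher in the wild-type pair and 1537 in the Cd39-null pair. The median of the mitosis genes was 1.91 log2 in wild type and 0.82 in the Cd39-null pair, and this difference was not tested. Cdk1, the kinase that drives entry into mitosis, lay at 3.47 and 5.57 in the wild-type pair and at 3.82 and 5.31 in the Cd39-null pair. Prc1, of the central spindle, lay at 2.95 and 4.98 and at 2.44 and 4.50, and Tk1, thymidine kinase, at 3.54 and 5.77 and at 3.51 and 5.31. Mki67 was the exception among the mitosis genes, at 3.67 and 6.26 and at 5.83 and 5.67, as it lay high on the Cd39-null sham array. Promoters of cell cycle genes are known for paired CCAAT boxes, read here as CCAAT on either strand. The box stood in 17 of 21 windows of the mitosis genes and in 16 of 21 windows of the replication genes, against 34.2% of all windows and 32.9% of those of higher genes. The Cdk1 promoter is shown for its 3 matches, chr10:69352913-69353162 on the minus strand, with the box in capitals.
Cdk1: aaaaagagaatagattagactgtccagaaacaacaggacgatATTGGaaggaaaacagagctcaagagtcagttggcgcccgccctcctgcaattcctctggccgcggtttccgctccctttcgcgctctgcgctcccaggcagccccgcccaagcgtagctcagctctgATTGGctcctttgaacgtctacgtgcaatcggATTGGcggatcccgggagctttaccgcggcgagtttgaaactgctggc
These lists were set beside the motif after their values were seen, so the counts are a description.

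Growth support was uneven. Of 26 ribosome biogenesis genes, Nhp2 alone passed 2-fold in both genotypes, at 3.53 and 6.54 and at 4.05 and 7.14, although 25 of 26 had a mean difference above 0. Of 26 tRNA synthetases and amino acid supply genes, Psat1 (serine synthesis) and Srm (spermidine synthesis) passed, and 20 of 26 had both ligated arrays above both sham arrays. Of 18 genes of the unfolded protein and heat shock response, 0 passed. Of 12 glucocorticoid response genes, 3 were higher (Angptl4, Cdkn1a and Mt2) and Pdk4 was lower (3 were lower under quantile normalisation and 2 under cyclic loess), and of 12 acute phase genes, Hp, Ptx3 and Serpina3n were higher and Cp was lower.

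**Figure D4:**
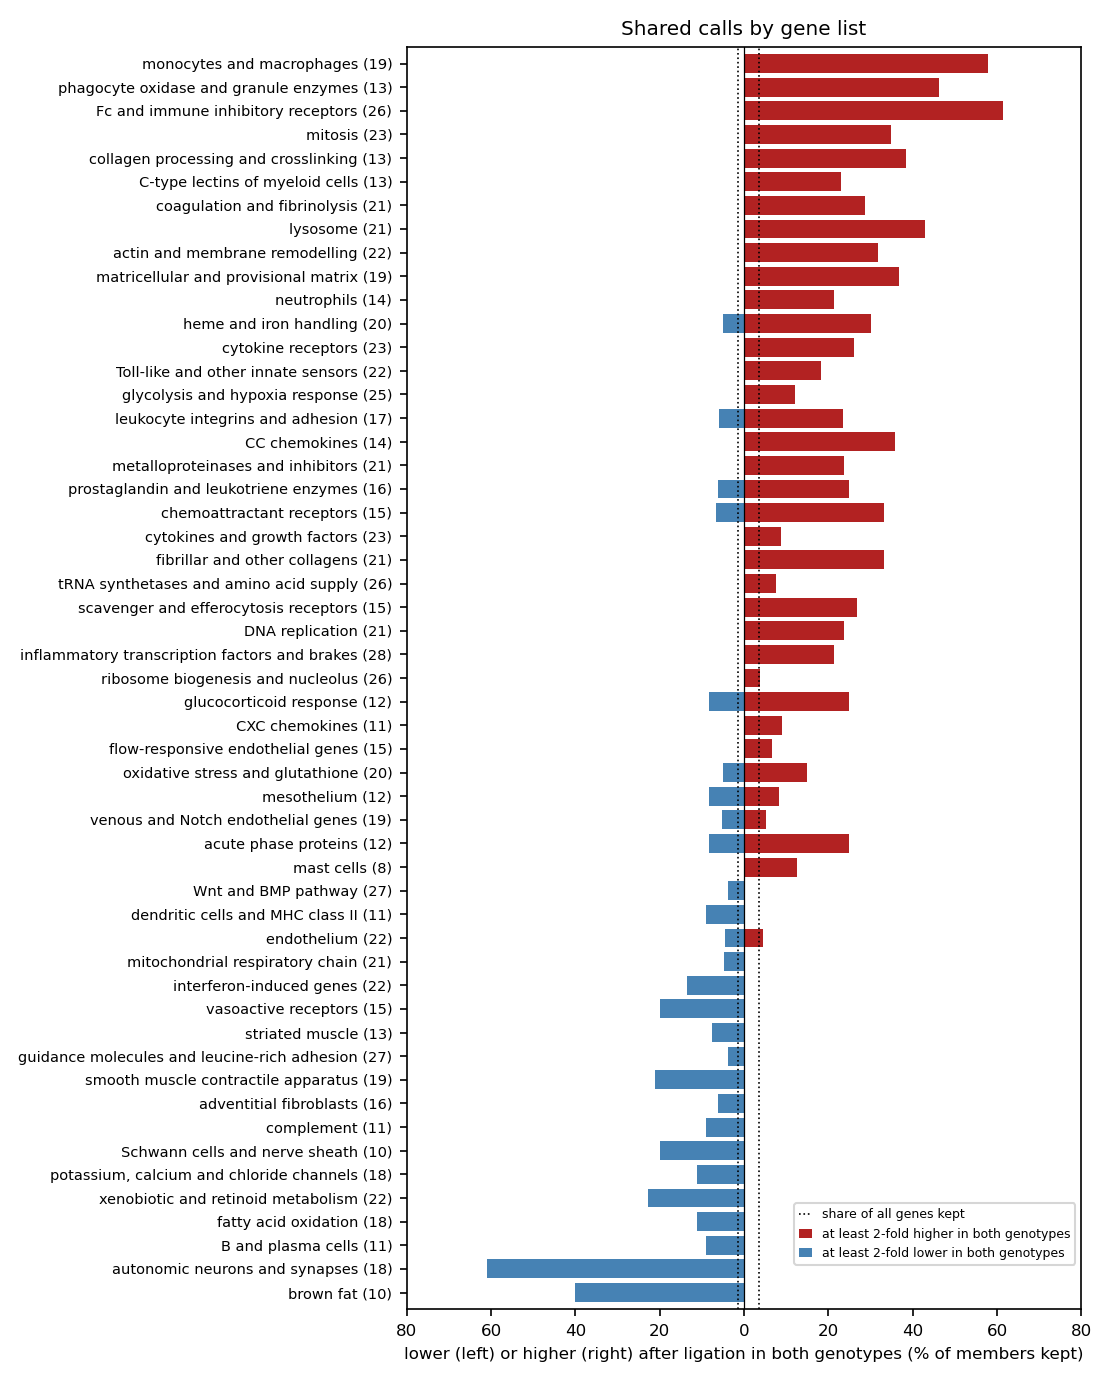
Share of each gene list (% of its members kept, whose number is in brackets) that was at least 2-fold higher (right, red) or lower (left, blue) after ligation in both genotypes, for the 53 of 60 lists with a called member, ordered by median mean difference; dotted lines mark the shares of all genes, 3.63% and 1.45%. Fc receptors (61.5%) and macrophage markers (57.9%) are the longest bars to the right, and autonomic neurons (61.1%) the longest to the left.

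Genes of autonomic neurons were lower after ligation in both genotypes, with the largest share of lower genes of any list. Sympathetic nerves run in the adventitia of veins, release noradrenaline and neuropeptide Y, and have ganglia along the abdominal aorta and vena cava. Of 18 neuronal genes kept, 11 were at least 2-fold lower in both genotypes and 0 higher, 16 had both ligated arrays below both sham arrays, 0 had opposite signs, and the median was -1.89 log2. The wild-type pair alone gave 13 of 18, the Cd39-null pair alone 12 of 18, and quantile normalisation 13 of 18 in both. Of all 14115 genes, 512 were that much lower in the wild-type pair and 818 in the Cd39-null pair. The mean level of the 18 genes was 5.68 and 4.15 in the wild-type pair and 5.17 and 3.50 in the Cd39-null pair. Th, the rate-limiting enzyme of noradrenaline synthesis, lay at 5.08 and 3.57 and at 5.12 and 2.85. Dbh, which makes noradrenaline from dopamine, lay at 6.85 and 5.00 and at 5.58 and 3.32, and Npy at 8.45 and 7.25 and at 8.52 and 6.56. Both ligated arrays were below both sham arrays in all of these genes.

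Synaptic, receptor and cytoskeletal genes of neurons shared the direction. Slc10a4, a carrier of synaptic vesicles, had the largest mean difference of the list and lay at 7.39 and 4.32 in the wild-type pair and at 6.53 and 3.65 in the Cd39-null pair (limma, mean -2.97 with a standard error of 0.23 and adjusted p = 0.0952). Chrna3, the nicotinic receptor subunit of ganglion cells, lay at 6.39 and 3.97 and at 5.45 and 2.10, and its partner Chrnb4 at 5.30 and 3.94 and at 4.91 and 4.03. The vesicle proteins Syt1 and Snap25 lay at 6.15 and 3.10 and at 4.90 and 2.49 for Syt1, and at 6.64 and 5.06 and at 7.21 and 3.94 for Snap25. The neurofilaments, which fill axons, lay at 5.02 and 3.33 and at 4.83 and 2.64 for Nefl and at 5.76 and 3.68 and at 5.14 and 2.75 for Nefm. On the array labelled Cd39-null, ligated, Syt1, Nefl and Chrna3 were at background. Not every neuronal gene was lower: Gap43, a protein of growing axons, differed by -0.22 and -0.65 log2, and Uchl1 by 0.68 and 0.08. Of the other leading lower genes, Scg3 (a secretory granule protein) and Vsnl1 (a neuronal calcium sensor) are also known from neurons; Scg3 lay at 4.62 and 2.77 and at 4.59 and 2.24, and Vsnl1 at 4.71 and 2.78 and at 4.85 and 2.28. How much ganglion or adventitia each pool of veins held was not tested.

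**Figure D5:**
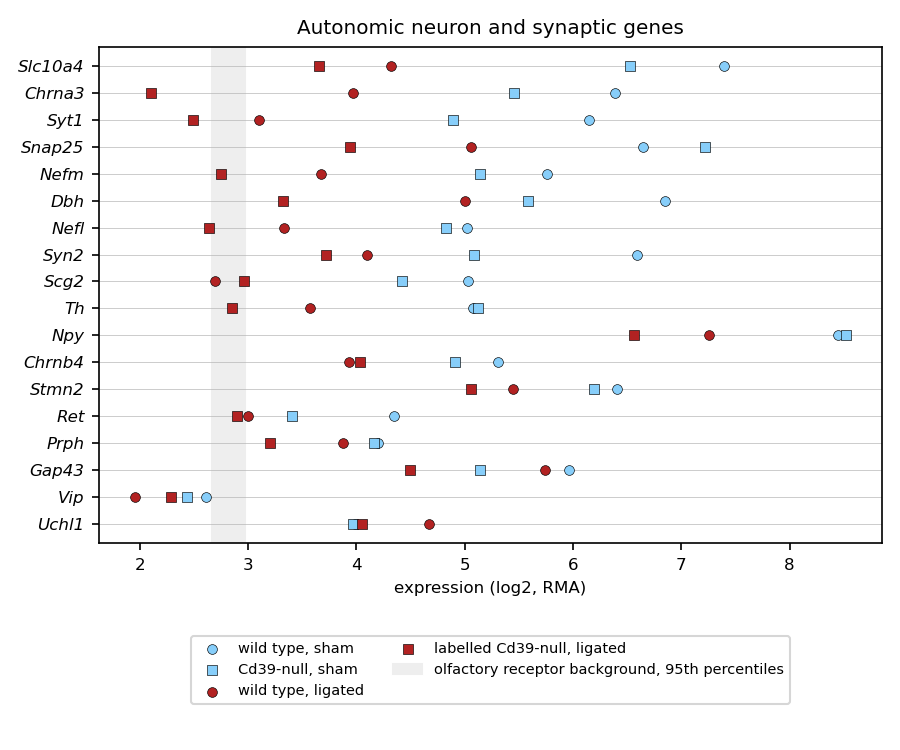
Expression (log2) of the 18 neuronal and synaptic genes kept on each of the 4 arrays, ordered by mean difference; circles are wild type, squares the Cd39-null pair, blue sham and red ligated, and the grey band is the olfactory background. Both red symbols lie to the left of both blue symbols in 16 of 18 genes, with Uchl1 the one that lies to the right.

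Schwann cell and nerve sheath genes were lower by less. Of 10 kept, 2 were at least 2-fold lower in both genotypes, 6 had both ligated arrays below both sham arrays, and the median was -0.67 log2 (-0.37 without the array labelled Cd39-null, ligated). Cdh19 lay at 5.99 and 4.41 in the wild-type pair and at 6.23 and 4.59 in the Cd39-null pair. S100b lay at 6.20 and 4.97 and at 6.15 and 3.31. Sox10, the factor that defines the lineage, differed by -0.73 and -0.36. Ptprz1, a receptor phosphatase also known from glia, lay at 3.69 and 2.24 and at 3.64 and 1.46.

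Among smooth muscle genes, 4 of 19 were lower in both genotypes (Myh11, Synpo2, Pln and Lmod1) and 0 higher. Myh11, the myosin heavy chain of smooth muscle, lay at 9.46 and 7.89 in the wild-type pair and at 7.79 and 5.54 in the Cd39-null pair. Synpo2 lay at 7.20 and 5.03 and at 5.19 and 3.53, and Pln, which restrains the calcium pump, at 4.73 and 3.04 and at 3.83 and 2.74. The 2 sham arrays differed in Myh11 and Synpo2 by more than 1 log2, so the groups overlapped in Myh11. The list was not uniform: Acta2 differed by -0.05 and -0.50, and Tagln by 0.33 and 0.42. Its median mean difference was -0.55 log2, and 0.07 without the array labelled Cd39-null, ligated. Of 13 striated muscle genes 1 was lower in both, Actc1 (cardiac alpha actin), at 8.64 and 5.14 and at 6.76 and 3.73. Its promoter is shown because a single CArG box, the serum response element, stands 47 bases before the start, in capitals, chr2:114052876-114053125 on the minus strand.
Actc1: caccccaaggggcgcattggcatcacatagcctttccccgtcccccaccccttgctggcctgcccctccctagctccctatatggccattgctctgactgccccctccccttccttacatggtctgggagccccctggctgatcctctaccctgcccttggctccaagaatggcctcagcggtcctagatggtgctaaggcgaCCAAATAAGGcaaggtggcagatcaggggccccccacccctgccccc
CArG boxes stood in 1% of the windows of lower genes, 1.54% of those of higher genes and 1.22% of all windows.

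Receptors and channels through which the vein wall responds to signals were lower in small numbers. Of 15 vasoactive receptors, 3 were lower in both genotypes and 0 higher. Htr2b, a serotonin receptor, lay at 6.21 and 4.34 in the wild-type pair and at 5.81 and 3.82 in the Cd39-null pair. Calcrl, the receptor for adrenomedullin and calcitonin gene-related peptide, lay at 7.51 and 6.45 and at 7.50 and 6.22. Gucy1a1, a subunit of the nitric oxide receptor, lay at 7.52 and 6.19 and at 6.38 and 4.37, whereas its partner Gucy1b1 had opposite signs (1.16 in the Cd39-null pair). Of 18 channels, 2 were lower, Kcnt2 and Ano1 (4 under quantile normalisation or cyclic loess), and 9 had both ligated arrays below both sham arrays. Endothelial markers were mostly not shared. Of 22, Ptprb was lower, at 8.33 and 6.49 and at 7.58 and 5.94, Aplnr was higher, at 4.60 and 6.27 and at 3.97 and 5.02 (0 of 22 were higher under quantile normalisation or cyclic loess), and 10 had opposite signs, among them Vwf (-1.34 and 0.39). Hey2, a target of Notch, was lower, at 4.98 and 3.88 and at 4.93 and 2.53. F8, coagulation factor VIII, which endothelium makes, lay at 4.81 and 2.75 and at 4.46 and 2.48.

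Among interferon-induced genes the shared lower ones were of the Ifit family. Of 22 such genes, 3 were lower in both genotypes, Ifit1, Ifit3 and Ifit3b, and 0 higher; the list's median was -0.28 log2, and -0.14 without the array labelled Cd39-null, ligated. Proteins of this family bind viral RNA. Ifit3 lay at 7.52 and 5.45 in the wild-type pair and at 7.05 and 4.44 in the Cd39-null pair. Ifit3b lay at 5.11 and 2.87 and at 5.11 and 1.61, with the ligated values at or near background, and Ifit1 at 5.41 and 3.82 and at 5.21 and 3.66. Ifit3 and Ifit3b are close copies of each other, and their probes may share signal. The other interferon genes were not shared as a group, and Xaf1 and Ddx58 had opposite signs (0.42 and -0.53, and 0.37 and -0.32). Outside the list, Iigp1, an interferon-induced GTPase, lay at 6.08 and 3.87 and at 5.75 and 3.91, among the 20 leading lower genes. The interferon-stimulated response element was searched as GAAANNGAA on both strands. It stood in 11 of 20 windows of the listed genes, in 7% of the windows of all lower genes, 9.25% of those of higher genes and 6.26% of all. The promoters of Ifit1, chr19:34640639-34640888, and Ifit3, chr19:34583279-34583528, both on the plus strand, are shown with their 3 matches each in capitals; the first matches begin 109 and 155 bases before the start.
Ifit1: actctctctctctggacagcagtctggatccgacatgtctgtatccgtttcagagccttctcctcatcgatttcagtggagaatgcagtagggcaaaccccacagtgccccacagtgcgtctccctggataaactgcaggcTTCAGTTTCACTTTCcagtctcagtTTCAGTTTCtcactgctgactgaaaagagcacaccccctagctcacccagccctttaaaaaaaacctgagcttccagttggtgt
Ifit3: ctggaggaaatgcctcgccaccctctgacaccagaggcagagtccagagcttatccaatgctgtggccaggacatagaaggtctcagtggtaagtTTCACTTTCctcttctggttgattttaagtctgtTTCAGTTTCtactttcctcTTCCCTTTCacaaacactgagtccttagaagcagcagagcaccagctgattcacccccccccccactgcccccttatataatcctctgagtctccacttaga

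Several enzymes that clear foreign compounds were lower in both genotypes. Of 22 genes of xenobiotic and retinoid metabolism, 5 were lower in both and 0 higher, 5 had opposite signs, 13 had both ligated arrays below both sham arrays, and the median was -0.74 log2, or -0.44 without the array labelled Cd39-null, ligated. Inmt, an indole N-methyltransferase, lay at 6.02 and 2.93 in the wild-type pair and at 5.50 and 2.90 in the Cd39-null pair, near background on both ligated arrays. The flavin monooxygenases Fmo1 and Fmo2 lay at 8.36 and 7.15 and at 8.59 and 5.05 for Fmo1, and at 7.72 and 5.97 and at 7.31 and 3.68 for Fmo2. Ephx1, an epoxide hydrolase, lay at 7.09 and 5.25 and at 6.12 and 3.53, and Adh1, an alcohol dehydrogenase that also oxidises retinol, at 6.44 and 5.19 and at 6.70 and 4.07. Retnla, a secreted protein of alternatively activated macrophages and fat, had the widest margin of all lower genes, at 7.21 and 3.86 and at 7.37 and 3.69; its mean difference was -3.51 log2 with a standard error of 0.23 (limma, adjusted p = 0.0952).

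Brown fat genes were lower too, but on unequal sham arrays. Of 10 kept, 4 were lower in both genotypes (Ucp1, Cox8b, Slc27a2 and Ppargc1a), 9 had both ligated arrays below both sham arrays, and the median was -0.84 log2 in the wild-type pair and -3.37 in the Cd39-null pair. Ucp1, the uncoupling protein of brown fat, lay at 4.14 and 2.03 in the wild-type pair and at 9.71 and 2.26 in the Cd39-null pair. Cox8b lay at 6.45 and 3.43 and at 10.06 and 3.22. The list's mean level was 3.96 and 6.49 on the 2 sham arrays and 2.96 on each ligated array, so the Cd39-null sham array carried more brown fat RNA than the wild-type one. Beside this, 2 of 18 genes of fatty acid oxidation (Ppargc1a, which also counts as brown fat, and Pdk4) and 1 of 21 respiratory chain genes (Ndufa5) were lower in both genotypes, and 0 of 14 white fat genes were. In the Cd39-null pair alone, 12 of 18 fatty acid oxidation genes and 11 of 14 white fat genes were past 2-fold lower, against 2 and 0 in the wild-type pair. Of all 14115 genes, 818 were that much lower in the Cd39-null pair and 512 in the wild-type pair. The part of fat in these values was not tested.

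Some lists had 1 called gene or none. Of 11 complement genes, Cd55, which protects cells from complement, was lower, at 6.42 and 5.38 and at 7.45 and 5.15. Of 16 fibroblast markers, Clec3b was lower, of 11 B cell genes Ms4a1 (CD20), of 11 dendritic cell genes Clec9a, of 27 Wnt and BMP genes Chrdl1, and of 27 guidance genes Lrrn1. Ms4a1 lay at 4.24 and 2.33 and at 6.23 and 2.34, with the ligated values at background. Lrrn1 lay at 5.36 and 2.76 and at 4.46 and 1.84. Of 8 mast cell genes, Kit was higher, at 3.16 and 4.55 and at 3.46 and 4.58, but 0 of the 8 passed under quantile normalisation. Of 12 mesothelial genes, Wt1 was higher, at 3.28 and 4.54 and at 3.10 and 4.35, and Gpm6a lower, at 5.64 and 4.00 and at 5.57 and 4.17. The 7 lists without a called gene were the circadian clock, the insulin-like growth factor axis, the unfolded protein response, T and NK cells, red cells, platelets and white fat.

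Some shared genes also stood next to each other on chromosomes, by RefSeq's gene order. Among 14078 neighbouring pairs of kept genes, 39 were higher together and 12 lower together. Runs of such neighbours held 75 of the 512 higher genes and 22 of the 204 lower genes. Over all genes, 3.63% were higher and 1.45% lower. How many such pairs these shares alone would give was not tested. The runs of 3 were Ccl9, Ccl6 and Ccl3; Ifit3, Ifit3b and Ifit1; Syngr2, Tk1 and Birc5; Nxpe5, Lamtor4 and Map11; and Ptprz1, Cadps2 and Ndufa5. The first and second of these are gene families. Probes of close family members may share signal, which was not tested. Ccl6 lay at 5.71 and 8.34 in the wild-type pair and at 6.58 and 8.59 in the Cd39-null pair. Other family neighbours were the pairs Ccl2 and Ccl7, Fcgr4 and Fcgr3, Cd300a and Cd300lb, Lilr4b and Lilrb4a, Clec4n and Clec4d, Col3a1 and Col5a2, and Slfn1 and Slfn4 among the higher genes. Among the lower ones they were Fmo1 and Fmo2, Nefl and Nefm, Enpp5 and Enpp4, Omd and Ogn, and Abca8b and Abca8a. Omd and Ogn, small proteoglycans of connective tissue, lay at 4.76 and 3.52 and at 4.91 and 2.58 for Omd, and at 9.21 and 7.70 and at 8.76 and 5.34 for Ogn.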

How the data were processed

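Total RNA of the inferior vena cava was extracted with Trizol, amplified to cDNA, biotinylated and hybridised to Affymetrix whole-transcript arrays, per the labels' protocols. The authors deposited log2 expression values of each probe set, which per the submitters' processing notes came from RMA in oligo; neither versions nor a genome build could be found in the labels or headers. RMA scales arrays to each other, so a shift common to most genes may have been removed, but the deposited distributions still differed (median of all probe sets 3.04 and 3.03 on the sham arrays, 2.99 and 2.97 on the ligated). Values were used as deposited. Read depth does not apply; the number of arrays limits the precision.

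Probe sets with exactly 1 symbol in the platform annotation were kept (21218; 1881 had several symbols and 12457 none), and the brightest per gene was used (18820 genes, 1386 with several probe sets). Genes whose mean was under the 25th percentile were left out, which kept 14115. A gene counted as shared when ligated and sham arrays were at least 2-fold apart the same way in both genotypes. An additive model of genotype and surgery was fitted to all kept genes with limma 3.58.1 in R 4.3.3 (lmFit and eBayes, Benjamini-Hochberg adjustment), and its code was tested on simulated data. RefSeq's GRCm38.p6 tables gave synonyms, neighbours and promoters. Of the 14115 genes kept, 11182 had a promoter window in the search, which did not cover every chromosome.

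A total of 60 gene lists, 43 of pathways and 17 of cell types, were matched by symbol or synonym: of 1196 entries 1042 were kept, 43 were dim and 111 were not matched and not analysed here. The comparison, the lists and the motifs were chosen with earlier results of these data known, so a list's count supports nothing beyond itself. Named genes were the 20 with the widest margin each way, up to 6 shared members and 3 of opposite sign per list, members of the 6 longest runs of neighbours, and Entpd1; predicted, RIKEN, microRNA, small RNA, receptor segment and olfactory genes were left out of rankings. Other genes named were chosen after their values were seen. Alternatives were other filters, quantile normalisation or cyclic loess of the arrays, the mean of probe sets, no genotype term, a trend in eBayes, and each array left out. The labels give no replicate numbers.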

Additional observations from a re-analysis of the deposited data

Results flagged for a closer look

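A total of 38 genes were at least 2-fold apart in opposite directions in the 2 genotypes, 13 of them higher in wild type and lower in the Cd39-null pair and 25 the reverse. They were picked up because every array pair of one genotype moved against that of the other; the difference between genotypes was not tested, since each has 1 pair of arrays. Ccl8, Clec1b, Mpig6b, Gp5, Cd226, Mmrn1 and Cd74 headed them by the smaller of both differences, and Clec1b, Mpig6b, Gp5 and Mmrn1 are known from platelets and megakaryocytes. The platelet list as a whole had a median difference of -1.081 log2 in the wild-type pair and 3.731 in the Cd39-null pair, and its mean level was 5.34 after sham and 4.46 after ligation in wild type, against 4.16 on the Cd39-null sham array and 7.79 on its ligated counterpart. The part of platelets, or of the array whose Entpd1 level goes against its label, in other differences of the Cd39-null pair was not tested.

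Probe sets outside the gene comparison carried shared differences too. Among 12457 with no symbol, 378 were higher in both genotypes (3.03%) and 142 lower (1.14%). Among 1881 with several symbols, 70 were higher (3.72%) and 21 lower (1.12%). These shares lie near those of named genes, 3.63% and 1.45%, and what the probe sets measure is not named here.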

How the results depend on the processing

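With 1 pooled array per group, the limits are the number of arrays and the background, and no alternative adds a replicate. Leaving out 1 array, the shared genes numbered 932 to 1537 higher and 512 to 818 lower, those with both ligated arrays beyond both sham arrays 626 to 964 above and 176 to 421 below, unadjusted limma p under 0.05 held for 1155 to 1586 higher and 417 to 948 lower genes, and adjusted calls were 0 to 79, all 79 without the wild-type ligated array; these counts rest on fewer arrays by construction. With genes above the 50th percentile, which tests fewer genes, 718 lower genes had an unadjusted p under 0.05. With the wild-type sham array as the reference of both ligated arrays, an alternative chosen after seeing the data, 629 genes were higher and 392 lower, and 446 of the 512 and 194 of the 204 shared genes were still called; the cause was not tested. Of 60 list medians, 9 changed sign without the array labelled Cd39-null, ligated: neutrophils (1.014 to -0.377), platelets (1.219 to -0.348), smooth muscle (-0.551 to 0.072), flow-responsive endothelium (0.433 to -0.062), red cells (0.152 to -0.308), dendritic cells (-0.132 to 0.544), acute phase (0.041 to -0.223), mast cells (-0.007 to 0.13) and the insulin-like growth factor axis (-0.098 to 0.02). In the wild-type pair alone 8 did, among them platelets (-1.081), the respiratory chain (-0.216 to 0.279) and the glucocorticoid response (0.47 to -0.15), in the Cd39-null pair alone 4, and under quantile normalisation or cyclic loess 2 each (venous and Notch genes, and mast cells); the cause was not tested. The other counts over all genes stayed within 1.5 times under no filter, quantile normalisation, cyclic loess, the mean of probe sets, no genotype term and the eBayes trend, with 0 adjusted calls in each. Counts within lists moved more: by over 1.5 times, or to or from 0, in 8 of 60 lists for higher and 9 for lower genes under quantile normalisation, and in 5 and 6 under cyclic loess. Each of the 276 genes named by rule with 1 sign in both pairs kept it under quantile normalisation, cyclic loess and the mean of probe sets. They were named for being at least 2-fold apart in both pairs, so a change of sign was unlikely from the outset. Arrays were paired by genotype, the block of the model; without the genotype term 1718 higher and 988 lower genes had an unadjusted p under 0.05. The labels give no replicate numbers, so no replicate block was fitted.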
